A study of Mus musculus with 12 samples.

Results

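The change that ganciclovir (GCV) made to the response of the mouse retina to raised intraocular pressure (IOP) was measured in RNA from both eyes of 6 p16-3MR mice, and all 12 of 12 libraries entered the comparison. One eye of each mouse, at 12 to 16 weeks of age, was held at 85 to 90 mm Hg for 60 minutes, and the fellow eye served as the control. Mice 1, 2 and 5 then received GCV at 25 mg/kg intraperitoneally once a day, and mice 3, 4 and 6 received PBS, which are called mice without GCV here. Retinas were taken after 3 days of treatment. For each mouse and gene, log2(FPKM + 1) of the control eye was subtracted from that of the IOP-treated eye (FPKM, fragments per kilobase of transcript, scaled by library size). The 3 changes with GCV were compared with the 3 changes without it, which is the interaction of pressure and GCV, over 18509 genes with a value above 0 in at least 1 library. Below, values follow the order of mice 3, 4 and 6 for animals without GCV and of mice 1, 2 and 5 for animals with GCV.

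All 6 animals carried the p16-3MR transgene, in which regulatory sequence of p16Ink4a drives a fusion protein that contains a viral thymidine kinase. This kinase turns GCV into a toxic nucleotide, so that cells in which the p16Ink4a promoter is active can be removed. No animal without the transgene is among these libraries, so that an effect of GCV itself and an effect of the loss of such cells cannot be told apart. p16Ink4a, a product of the Cdkn2a locus, blocks the kinases that drive entry into the cell cycle and is a mark of cellular senescence. Senescent cells secrete cytokines, proteases and growth factors, together called the senescence-associated secretory phenotype (SASP). In the retina, raised pressure is known to injure retinal ganglion cells, whose axons form the optic nerve, and to activate Müller glia and microglia. In whole retinas, fewer cells of a type and less RNA per cell cannot be told apart.

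The labelled tissue held the RNA of retina, with Abca4, the retinoid transporter of photoreceptor discs, at 117 to 274 FPKM. From low values of genes with 1 transcript, the libraries were estimated to rest on 6770000 to 9070000 fragments, apart from 3970000 for the IOP-treated eye of mouse 6, which also had the fewest genes above 0 (14844 against 16044 to 16593). The control eye of mouse 1 stood apart in lens RNA, with a sum of 9621 FPKM over 25 lens genes against 72.8 to 231.2 FPKM in the other control eyes. Of the 84 genes chosen by rule and reported, the interaction moved by over 1.5 times or changed sign for 25 without mouse 1, 30 without mouse 2, 19 without mouse 3, 21 without mouse 4, 40 without mouse 5 and 28 without mouse 6. A pseudocount of 0.1 in place of 1 did so for 33 of them, since the size of a difference on this scale depends on the pseudocount where levels are low.

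Cdkn2a itself was close to the limit of detection. Its control eyes held 0.189, 0.160 and 0.301 FPKM without GCV and 0.345, 0.171 and 0 FPKM with GCV. In IOP-treated eyes the values were 0, 0.334 and 0 FPKM without and 0.181, 0 and 0.601 FPKM with GCV. The groups overlapped in both eyes, and at this depth no difference was detectable (interaction 0.23 on the log2 scale, 95% interval -0.45 to 0.91). The size of this value was set by the pseudocount, and it was 1.17 with a pseudocount of 0.1. The transcript of the transgene was not analysed here. Cdkn1a, which encodes p21, a second cell cycle inhibitor linked to senescence, stood at 1.25, 1.45 and 1.91 FPKM in control eyes without GCV and at 1.59, 2.08 and 1.75 FPKM with GCV. After IOP elevation it was at 6.64, 5.70 and 10.6 FPKM without and at 7.39, 3.83 and 17.3 FPKM with GCV. Cdkn1a rose over the 6 mice by 1.71 (adjusted p = 0.0232 for the mean response, limma), and its rise differed between the groups by -0.04 (interval -1.34 to 1.25).

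No gene passed an adjusted p of 0.05 for the interaction (0 of 18509, 0%), and the smallest adjusted p was 0.992 (limma, Benjamini-Hochberg). At an unadjusted p under 0.05, 378 genes passed (2.04%), where an even spread of p-values would give 925. Of these, 238 had a change that was higher with GCV (1.29%) and 140 one that was lower (0.756%), while without mouse 6 the numbers were 191 and 228. The changes of the 3 mice with GCV all lay above those of the 3 mice without it for 687 genes (3.71%) and all below for 422 (2.28%). None of the genes named below passed the adjusted threshold for the interaction. Of the 378 genes, 128 (33.9%) had a larger difference between the groups in the control eyes than in the IOP-treated eyes, against 36.9% of all genes. The number was 199 with a filter of at least 1 FPKM in 3 libraries and 757 without mouse 3.

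The precision of single genes is given here by intervals that are not adjusted for the number of genes tested. A call after adjustment needed more than such an interval implies. Fbln1, with an interaction of 2.43, had an adjusted p of 0.992 (limma). Among the 12910 genes that averaged 1 FPKM or more, the median 95% interval of the interaction reached 0.652 log2 units to either side (quartiles 0.498 and 0.896). For 8076 of them (62.6%) the whole interval lay within 1 log2 unit of 0 on the scale of log2(FPKM + 1), which understates differences of low genes.

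**Figure D1:**
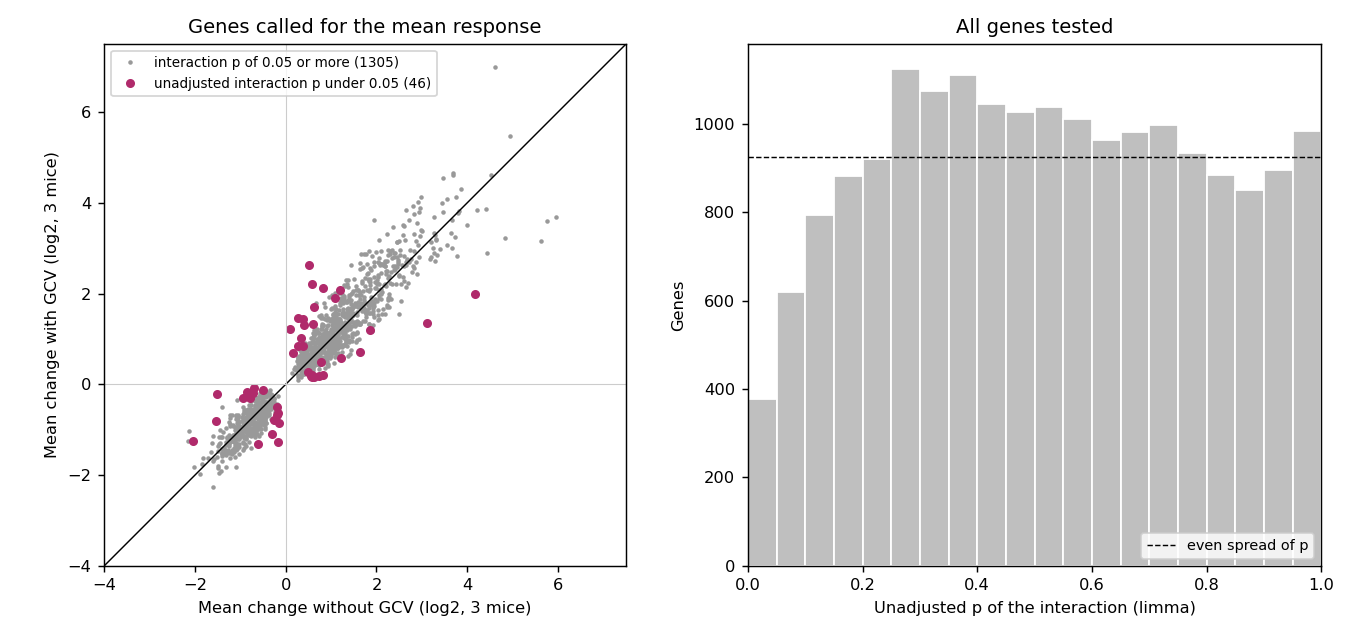
Left, mean change between the eyes (log2 of FPKM + 1) in the 3 mice without GCV (x axis) and the 3 mice with GCV (y axis) for each of the 1351 genes called for the mean response; the line marks equal changes, and the 46 coloured genes had an unadjusted interaction p under 0.05. Right, number of genes by unadjusted p of the interaction over all 18509 genes, with a dashed line at an even spread; the first bin holds 378 genes, fewer than the 925 of the line.

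The response to IOP elevation averaged over all 6 mice was called for 1351 genes (7.3%), of which 894 rose and 457 fell. Its estimate does not use the difference between the groups, but its test shares the variance between mice with that of the interaction. Among them, 544 (40.3%) had a change nearer to 0 with GCV, against 52.3% of all genes. The share was alike for genes that rose (358, 40.0%) and genes that fell (186, 40.7%). In the direction of the response, the median interaction of the 1351 genes was 0.07, beside a median response of 0.97. An unadjusted p under 0.05 was reached by 46 of them (3.4%, beside 2.04% of all genes), 23 with a larger and 23 with a smaller response with GCV. Calling the mean response favours genes of low variance between mice, which also have smaller interaction p-values. These 2 shares are therefore not a like comparison. The direction of the share with a change nearer to 0 turned without mouse 5 and without mouse 4. With mouse 5 left out, 907 of the 1351 genes (67.1%) had the smaller response in GCV-treated mice, and without mouse 4 this share was 55.1%, while it lay between 30.1% and 35.2% without any other single mouse. Fewer genes were called for the mean response when a mouse was left out, from 1 without mouse 3, 107 without mouse 1, 247 without mouse 6, 323 without mouse 5 and 494 without mouse 2 to 887 without mouse 4.

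The size of the response varied within each group. The root mean square change over the 12910 genes was 0.782, 0.540 and 0.901 log2 units without GCV and 0.559, 0.618 and 0.958 with GCV. The group means of 0.741 ± 0.184 and 0.712 ± 0.216 (SD, n = 3 mice each) differed by -0.03 (p = 1, exact permutation test, two-sided), where 3 mice against 3 allow no p under 0.1. Genes more than 2-fold lower in the IOP-treated eye numbered 832, 61 and 1444 without GCV and 72, 726 and 1110 with GCV. Mouse 4 without GCV and mouse 1 with GCV thus had few such genes, and each group held both small and large responses. Over the 12910 genes, the changes of 2 mice with GCV correlated at 0.53 to 0.69 (Pearson, 3 pairs), those of 2 mice without GCV at 0.45 to 0.54 (3 pairs) and those of 1 mouse of each kind at 0.38 to 0.79 (9 pairs). The highest of these values belonged to mice 3 and 5, which received different treatments. These are correlations across genes, which are not independent replicates.

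**Figure D2:**
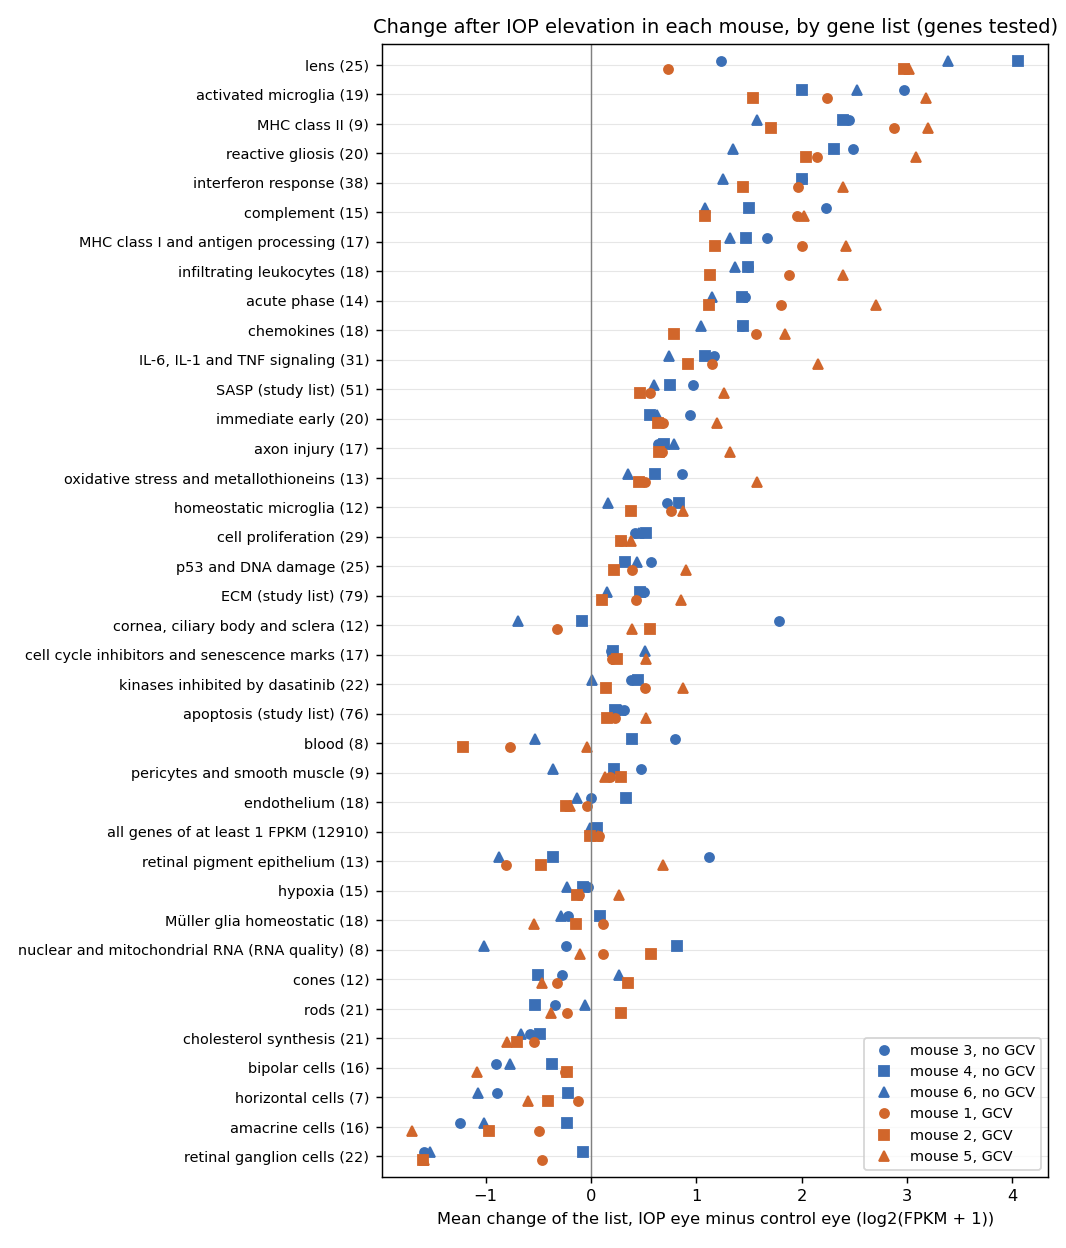
Mean change between the IOP-treated and the control eye (log2 of FPKM + 1, x axis) of each of 37 gene lists and of all genes of at least 1 FPKM, with 1 point per mouse; blue points are mice 3, 4 and 6 without GCV and orange points mice 1, 2 and 5 with GCV, and the number of genes tested is in parentheses. For the retinal ganglion cell list, 2 mice of each group lay between -1.53 and -1.60, and mouse 4 lay closest to 0. Mouse 5 lay highest in most inflammatory lists.

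Markers of retinal neurons also varied within each group. For 22 retinal ganglion cell markers, the mean change was -1.58, -0.08 and -1.53 without GCV and -0.46, -1.60 and -1.59 with GCV. Mouse 4 without GCV and mouse 1 with GCV lay closest to 0, and the values of the groups overlapped. In the mean response, 7 of the markers fell and none rose, the median interaction was -0.11, and without single mice it ran from -0.62 (mouse 1) to 0.34 (mouse 4). Chrna6, a nicotinic receptor subunit of ganglion cells, stood at 38.2, 46.5 and 41.6 FPKM in control eyes and at 6.16, 33.9 and 5.10 FPKM in IOP-treated eyes without GCV. With GCV it was at 45.9, 75.2 and 54.4 FPKM and at 28.1, 15.2 and 5.99 FPKM. It fell by 1.94 over the 6 mice (adjusted p = 0.0441) with an interaction of -0.07 (interval -2.001 to 1.86). Nefh, the heavy neurofilament chain of large axons, fell by 1.12 (adjusted p = 0.0347), with an interaction of -0.50 (interval -1.50 to 0.50).

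For the other inner retinal neurons the values of the groups overlapped as well. Mean changes of 16 amacrine cell markers were -1.24, -0.23 and -1.01 without and -0.50, -0.97 and -1.70 with GCV (median interaction -0.21, and -0.49 to 0.12 without single mice), and those of 16 bipolar cell markers were -0.90, -0.37 and -0.77 without and -0.25, -0.23 and -1.08 with GCV (median 0.16, and 0.0 to 0.42 without single mice). Calb2, the calcium-binding protein calretinin of amacrine and ganglion cells, fell by 1.92 (adjusted p = 0.0396) with an interaction of 0.21 (standard error 0.75). All 7 horizontal cell markers tested had a change that was higher with GCV, with a median interaction of 0.33 that stayed between 0.22 and 0.56 without any single mouse. Among all genes 9393 of 18509 had a higher change. Lhx1, a transcription factor of horizontal cells, was at 0.896, 1.66 and 1.06 FPKM in control eyes and 0.292, 0.575 and 0 FPKM in IOP-treated eyes without GCV. With GCV these values were 1.28, 1.05 and 0.958 FPKM and 1.14, 0.618 and 0.441 FPKM. The changes did not overlap between the groups (interaction 0.49, standard error 0.19, unadjusted p = 0.0431). Calb1, the calbindin of horizontal cells and the more abundant marker, had an interaction of 0.04 (standard error 0.56).

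No rod gene was called for the mean response. The 21 rod genes had mean changes of -0.34, -0.53 and -0.06 without and -0.23, 0.29 and -0.38 with GCV, and 17 of 21 had a change that was higher with GCV (median 0.21, and 0.02 to 0.36 without single mice). Abca4 stood at 264, 223 and 274 FPKM in control eyes and at 184, 158 and 117 FPKM in IOP-treated eyes without GCV. In mice with GCV it stood at 253, 202 and 217 FPKM and at 217, 219 and 155 FPKM. Its changes did not overlap between the groups (interaction 0.55, interval -0.11 to 1.21). The 12 cone genes had a median interaction of -0.06 (-0.26 to 0.23 without single mice). The cone opsin Opn1sw had an interaction of 0.63 (interval -0.10 to 1.37), and cone arrestin Arr3, which fell by 1.28 (adjusted p = 0.0386), one of 0.23 (standard error 0.49).

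Each inflammatory list below held genes that rose, and most list medians of the interaction were above 0 but moved with single mice. The largest mean responses were those of Saa3, Lyz2, Crybb2, Cryaa and Apoc2, and the last, with the macrophage lysozyme Lyz2, is expressed in phagocytes. Saa3, an acute-phase protein, stood at 0.713, 0.601 and 0.629 FPKM in control eyes and 17.4, 69.5 and 49.0 FPKM in IOP-treated eyes without GCV. The GCV-treated mice had 0.358, 0.716 and 3.995 FPKM and 224, 24.9 and 4173 FPKM. The highest and the second lowest of the 6 IOP-treated eyes both belonged to GCV-treated animals, and the interaction of 2.39 had an interval of -1.05 to 5.83 and was 1.03 without mouse 5. Lyz2 rose by 5.21 (adjusted p = 0.00417) with an interaction of 0.55 (standard error 0.73), and Apoc2 by 4.56 (adjusted p = 0.0093) with one of 0.09 (standard error 1.02).

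Of 38 interferon response genes, 37 rose in the mean response and none fell, and 28 of 38 had a higher change with GCV, with a median interaction of 0.21. Mean changes of this list were 1.25 to 2.01 without and 1.44 to 2.39 with GCV, and the median was -0.04 without mouse 5, 0.44 without mouse 2 and 0.0 without mouse 6. The 17 genes of MHC class I presentation (median interaction 0.37, 14 of 17 higher), 9 of MHC class II (0.56, 7 of 9), 31 of interleukin-6, interleukin-1 and TNF signaling (0.38, 26 of 31), 20 of reactive gliosis (0.38, 18 of 20) and 18 of infiltrating leukocytes (0.33, 13 of 18) had a median above 0 without any single mouse. Without mouse 5 these medians were 0.02, 0.19, 0.10, 0.05 and 0.09, and without mouse 2 they were 0.77, 0.84, 0.68, 0.62 and 0.63. Without mouse 6 the gliosis median was 0.10. Complement (0.14), chemokines (0.12), acute-phase genes (0.26), immediate early genes (0.22) and oxidative stress genes (0.13) had medians below 0 without mouse 5. Without mouse 2 these medians were 0.49, 0.52, 0.51, 0.30 and 0.32, and without mouse 1 that of complement was -0.05. In the list of infiltrating leukocytes, the summed level was 120.1 to 213.9 FPKM in IOP-treated eyes without GCV and 207, 115.9 and 720.5 FPKM with GCV, and its part in the other lists was not tested.

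Single genes of these lists had interactions of either sign. Bst2, an interferon-induced membrane protein, rose by 3.19 with an interaction of 0.43 (interval -1.05 to 1.91). B2m, the light chain of MHC class I, rose by 3.08 with an interaction of -0.36, and the class II genes H2-Aa and Cd74 rose by 4.003 and 4.17 with interactions of 1.07 and 0.98. H2-Aa was at 46.3, 37.6 and 55.0 FPKM in IOP-treated eyes without GCV and at 100.0, 37.6 and 107 FPKM with GCV. Complement factor B, encoded by Cfb, was at 8.35, 5.05 and 5.70 FPKM without and 19.8, 4.11 and 37.9 FPKM with GCV in IOP-treated eyes (interaction 1.68, interval -0.11 to 3.46). Of the others, C3, the central complement component, had an interaction of 1.08, Ccl5, a T-cell chemokine, 1.10, Timp1, a protease inhibitor of reactive glia, 0.92, and Edn2, endothelin-2 of stressed photoreceptors, 0.53. Bcl3, a cofactor of NF-kappa-B, rose by 4.04 with an interaction of -0.37. For Plac8, Cd52 and Tlr4 of myeloid and lymphoid cells, the interaction was 1.10, 0.38 and 0.60. The intervals of all 13 genes from Bst2 to Tlr4 included 0. Without mouse 6 the interaction was 0.07 for Bst2, 0.38 for Cd74, 0.11 for Timp1, 0.06 for Edn2 and -0.27 for Cd52.

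The medians of the microglial lists were near 0. Of 19 activation genes of microglia, 18 rose in the mean response, and 12 of 19 had a lower change with GCV (median -0.07, and from -0.57 without mouse 5 to 0.23 without mouse 2), with mean changes of 2.97, 2.01 and 2.52 without and 2.24, 1.54 and 3.18 with GCV. For 12 homeostatic microglial genes the median was -0.01 (-0.16 to 0.20 without single mice). Among these, Olfml3 had an interaction of 0.96 (interval -0.38 to 2.29) and Fcrls one of -0.15 (standard error 0.44). The smallest p of the activation list at a level of at least 1 FPKM was that of Spp1, osteopontin, which is secreted by activated microglia and by some ganglion cells. Spp1 stood at 13, 15.7 and 19.2 FPKM in control eyes and at 380, 112 and 652 FPKM in IOP-treated eyes without GCV. With GCV it stood at 17.3, 29.2 and 26.8 FPKM and at 89.0, 50.04 and 208 FPKM. Its changes of 4.77, 2.76 and 5.02 without and 2.30, 0.76 and 2.91 with GCV overlapped only between mice 4 and 5 (interaction -2.19, standard error 0.77, interval -4.05 to -0.34, unadjusted p = 0.0272). Without any single mouse the interaction of Spp1 was -1.58 to -2.90.

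Ccl12, Fosb and Ifi44 had interactions below 0, none of which passed the adjusted threshold. Ccl12, a monocyte chemokine of the SASP list, stood at 0.703, 0 and 0.310 FPKM in control eyes and 6.75, 12.1 and 13.1 FPKM in IOP-treated eyes without GCV. With GCV it stood at 2.12, 1.41 and 1.58 FPKM and at 4.38, 11.3 and 3.76 FPKM. The control eyes with GCV were thus all higher than those without, by 1.04 log2 units on average, beside a difference of -0.72 in the IOP-treated eyes, and the interaction was -1.76 (interval -3.18 to -0.35, unadjusted p = 0.0221). Fosb, an AP-1 transcription factor induced by stress, was at 0.605, 0.608 and 0.984 FPKM in control eyes and 5.24, 3.89 and 7.05 FPKM in IOP-treated eyes without GCV. The GCV-treated mice had 0.588, 0.863 and 0.928 FPKM and 1.90, 3.38 and 4.35 FPKM. Changes of Fosb did not overlap (interaction -0.67, interval -1.32 to -0.02, unadjusted p = 0.0443), while Egr1 of the same list of 20 immediate early genes, 14 of which had a higher change with GCV, had an interaction of -0.43 (interval -1.63 to 0.77). Ifi44, an interferon-induced gene, stood at 2.34, 1.96 and 2.73 FPKM in IOP-treated eyes without and 1.16, 0.530 and 1.87 FPKM with GCV, and at no more than 0.167 FPKM in any control eye. Its changes did not overlap either (interaction -0.60, interval -1.20 to 0.01).

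**Figure D3:**
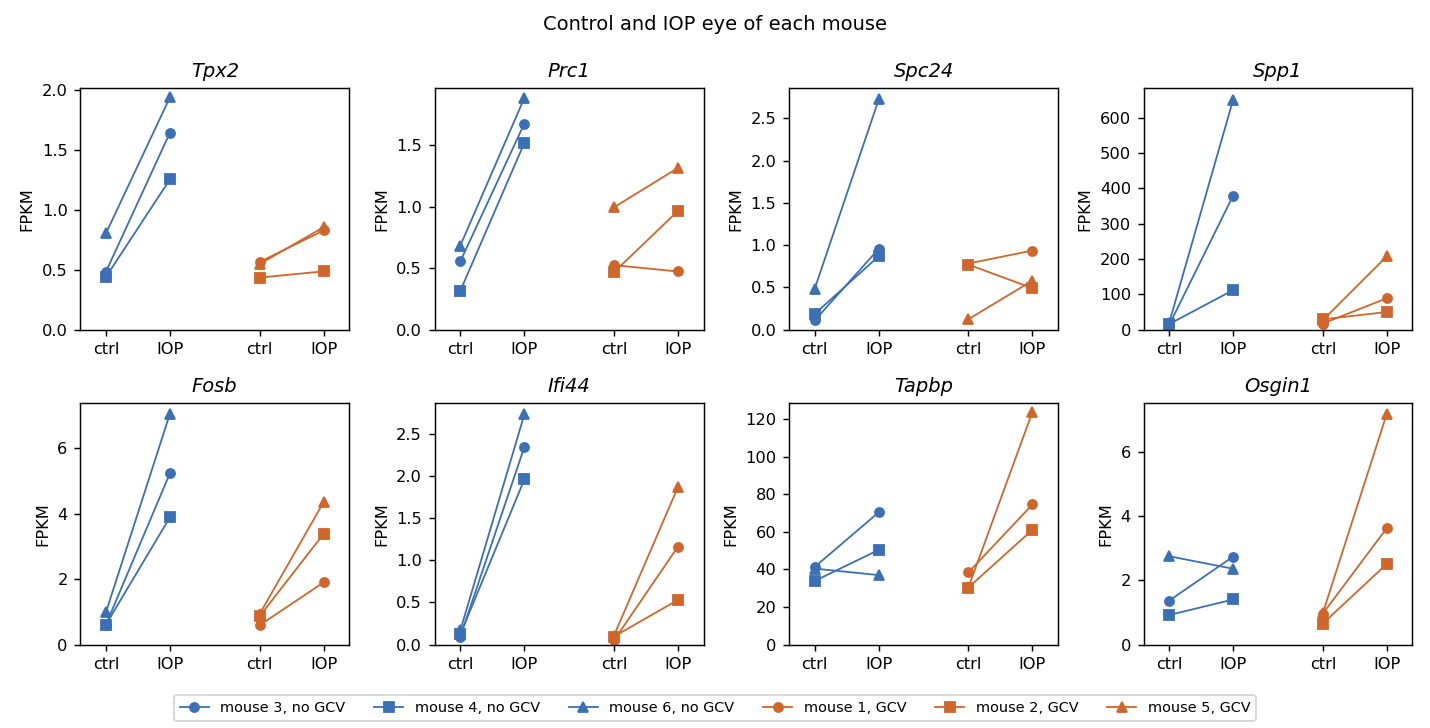
FPKM (linear y axis from 0) of 8 genes in the control (ctrl) and the IOP-treated (IOP) eye of each mouse, joined by a line; blue, mice without GCV; orange, mice with GCV. The mean difference in FPKM between the eyes was larger without GCV for Tpx2, Prc1, Spc24, Spp1, Fosb and Ifi44, with interactions of -0.55 to -2.19. It was larger with GCV for Tapbp and Osgin1 (0.91 and 1.18). Changes on the log2 scale overlap between the groups only for Spp1, while levels of IOP-treated eyes overlap for Spp1, Spc24, Fosb, Tapbp and Osgin1.

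Tpx2 and Prc1, which act in mitosis, were among the 10 genes with the smallest p-values for a lower change with GCV at a level of at least 1 FPKM in a group and with changes that did not overlap, and Spc24 had the smallest p of the proliferation list at that level. Pmf1, a kinetochore protein, had a higher change with GCV (interaction 0.68, standard error 0.15, unadjusted p = 0.00351). Tpx2, which activates Aurora kinase on the spindle, stood at 0.482, 0.439 and 0.802 FPKM in control eyes and 1.64, 1.25 and 1.94 FPKM in IOP-treated eyes without GCV. Levels with GCV were 0.564, 0.434 and 0.547 FPKM and 0.827, 0.486 and 0.854 FPKM. The control eyes of the groups overlapped, and the IOP-treated eyes did not overlap (interaction -0.55, standard error 0.15, interval -0.92 to -0.18, unadjusted p = 0.0106). Prc1, which bundles microtubules at the spindle midzone, was at 0.555, 0.316 and 0.683 FPKM and at 1.68, 1.52 and 1.88 FPKM without GCV. The corresponding values with GCV were 0.524, 0.467 and 0.994 FPKM and 0.473, 0.965 and 1.31 FPKM (interaction -0.64, standard error 0.19, unadjusted p = 0.0128). Spc24, a kinetochore subunit, was at 0.109, 0.185 and 0.484 FPKM and at 0.957, 0.869 and 2.72 FPKM without GCV. With GCV its levels were 0.782, 0.769 and 0.123 FPKM and 0.935, 0.491 and 0.580 FPKM (interaction -0.81, standard error 0.26, unadjusted p = 0.0200). Each of the 3 genes kept its sign without any single mouse, in ranges of -0.49 to -0.59, -0.51 to -0.75 and -0.62 to -1.0. With a pseudocount of 0.1 the values were -0.97, -1.19 and -1.70. Their levels of at most a few FPKM rest on few fragments.

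In the list of 29 proliferation genes, 11 rose and 1 fell in the mean response. The mean change was 0.42, 0.52 and 0.45 without and 0.28, 0.29 and 0.38 with GCV, so that the groups did not overlap. The list is among 37 that were described without a test. For any such separation, 3 mice against 3 allow no p under 0.1 (exact permutation test, two-sided). Of these genes 20 had a lower change with GCV, beside 9116 of 18509 genes, with a median interaction of -0.14 that stayed between -0.07 and -0.15 without any single mouse. Unadjusted p-values under 0.05 were reached by 2 genes, both lower, and the changes did not overlap for 2 lower and 2 higher genes. Over all genes these shares were 0.756% for a lower change at that p, 2.28% for changes all below and 3.71% for changes all above. Tpx2 and Prc1 are not in this list. Cell cycle inhibitors and other marks of senescence (17 genes) had a median of -0.03, and p53 and DNA damage genes (25 genes) one of 0.02. Of these, Cdkn2c, an inhibitor of the same family as p16Ink4a, had an interaction of 0.44, Sesn1, a stress-induced p53 target, one of 0.35, and Gadd45b, a stress gene that rose by 2.79, one of -0.18, each with an interval that included 0.

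The 3 lists of the SASP, the extracellular matrix (ECM) and apoptosis were taken from the study, which applied them to these samples. Of 51 SASP genes, 13 rose in the mean response and none fell, and the change was lower with GCV for 29 (median interaction -0.03, and -0.17 to 0.06 without single mice). For 79 ECM genes, 12 rose and 3 fell, and 38 had a lower change (median 0.04, and -0.06 to 0.13). For 76 apoptosis genes, 12 rose and 1 fell, and 40 had a lower change (median -0.01, and -0.06 to 0.11). The unadjusted p was under 0.05 for 1 SASP gene (Ccl12), for 2 higher and 2 lower ECM genes, and for no apoptosis gene, beside 2.04% of all genes, and the mean response was called for 7.3% of all genes. Casp1, which processes interleukin-1, rose by 1.69 with an interaction of -0.08, and Dffb, the nuclease of apoptotic DNA cleavage, had an interaction of 0.49, both with intervals that included 0. With no trend in the prior variance the interval of Dffb was 0.04 to 0.93.

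Tapbp and Osgin1 had interactions above 0, which did not pass the adjusted threshold. Tapbp, the tapasin that loads peptides onto MHC class I, stood at 41.3, 33.9 and 40.4 FPKM in control eyes and at 70.5, 50.4 and 37.0 FPKM in IOP-treated eyes without GCV. In the GCV group it was at 38.4, 30.4 and 30.4 FPKM and at 74.6, 61.1 and 124 FPKM (interaction 0.91, interval 0.04 to 1.78, unadjusted p = 0.0432). Without mouse 5 this interaction was 0.57 and without mouse 6 it was 0.65. With no trend in the prior variance the interval of Tapbp was -0.02 to 1.83. Osgin1, an inhibitor of growth induced by oxidative stress, was at 1.36, 0.917 and 2.75 FPKM and at 2.73, 1.40 and 2.36 FPKM without GCV. GCV-treated mice had 0.959, 0.651 and 0.974 FPKM and 3.62, 2.51 and 7.18 FPKM (interaction 1.18, interval 0.30 to 2.06, unadjusted p = 0.0163). Of the 13 genes of its oxidative stress list, 7 had a higher and 6 a lower change with GCV. Tgm1, a transglutaminase of the gliosis list, had an interaction of 1.08 (interval 0.06 to 2.09), with control eyes that were lower with GCV by 0.75. Slc2a1, the glucose transporter of the blood-retina barrier, had an interaction of 0.50 (interval 0.05 to 0.96) and belongs to a hypoxia list of 15 genes with a median of 0.03. Hmox1, the heme oxygenase, rose by 3.04 with an interaction of 0.88, and Sprr1a, a gene of axon regeneration in a list of 17 axon injury genes with a median of 0.00, rose by 2.46 with an interaction of 0.93, both with intervals that included 0.

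Fbln1, Gpx3, Dio3 and Mfap2, among the 10 smallest p-values for a higher change with GCV where genes had at least 1 FPKM in a group and changes that did not overlap, differed between animals already in control eyes. Fbln1, the matrix protein fibulin-1, stood at 20.9, 0.722 and 29.6 FPKM in control eyes and at 24.1, 0.608 and 23.3 FPKM in IOP-treated eyes without GCV. GCV-treated mice had 2.20, 0.772 and 1.19 FPKM in control eyes and 22.6, 2.91 and 17.0 FPKM in IOP-treated eyes. Both eyes of mice 3 and 6 were thus near the IOP-treated eyes of mice 1 and 5, and both eyes of mouse 4 were low. The interaction was 2.43 (interval 1.15 to 3.71, unadjusted p = 0.00321), with a mean difference between the groups of -2.18 in control eyes and of 0.25 in IOP-treated eyes. Gpx3, a secreted glutathione peroxidase, was also low in both eyes of mouse 4, with 172, 12.1 and 344 FPKM in control eyes and 265, 12.1 and 663 FPKM in IOP-treated eyes without GCV. With GCV its values were 60.5, 10.97 and 17.6 FPKM and 258, 47.9 and 255 FPKM (interaction 2.11, interval 0.85 to 3.36). Dio3, which inactivates thyroid hormone, and Mfap2, a microfibril protein, had interactions of 1.49 (interval 0.65 to 2.32) and 1.11 (interval 0.45 to 1.76) and likewise lay higher in both eyes of mice 3 and 6 than in the control eyes of mice 1, 2 and 5.

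**Figure D4:**
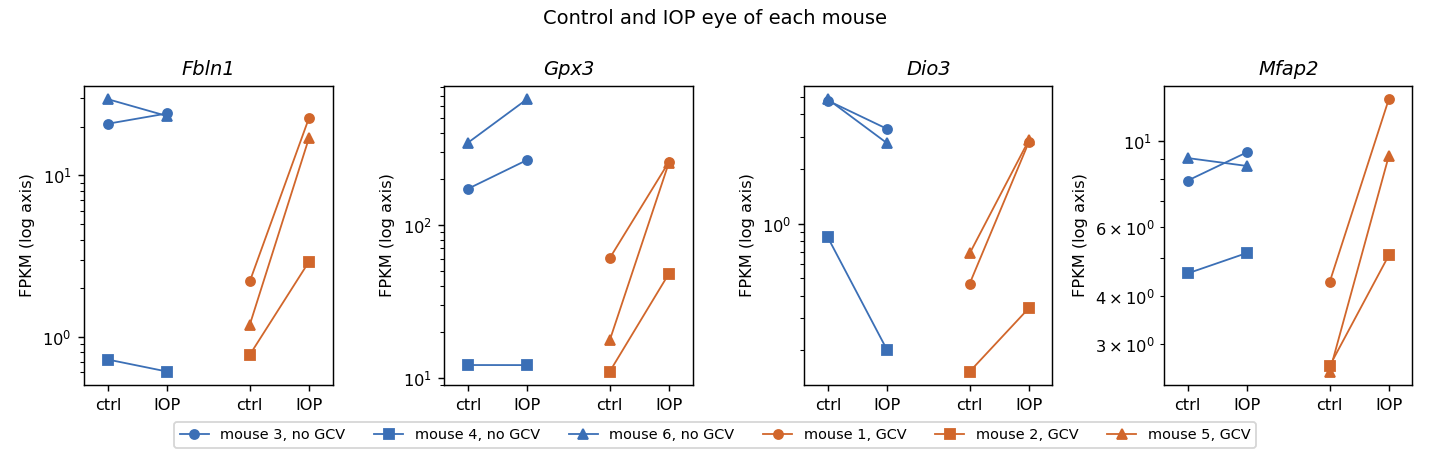
FPKM (logarithmic y axis) of Fbln1, Gpx3, Dio3 and Mfap2 in the control and the IOP-treated eye of each mouse, joined by a line; blue, mice without GCV; orange, mice with GCV. The steep orange lines start below the control eyes of mice 3 and 6, for Fbln1 at 0.772 to 2.20 FPKM against 20.9 and 29.6 FPKM, and for Fbln1 they end at 17.0 and 22.6 FPKM in mice 5 and 1.

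Markers of tissue next to the retina varied between libraries. The summed level of 12 markers of cornea, ciliary body and sclera was 28.9, 21.2 and 58.8 FPKM in control eyes and 196, 39.1 and 20.7 FPKM in IOP-treated eyes without GCV, and 33.0, 22.3 and 17.6 FPKM and 38.3, 47.1 and 72.1 FPKM with GCV. That of 13 markers of the retinal pigment epithelium was 151, 94.6 and 478 FPKM and 500.3, 70.6 and 309 FPKM without, and 341, 223 and 28.8 FPKM and 135, 101 and 77.6 FPKM with GCV. Their list medians were -0.11 and 0.09, and they ran from -0.82 and -0.50 without mouse 6 to 0.28 and 0.43 without mouse 3. No marker of either list was called for the mean response. Aldh3a1, a crystallin-like enzyme of the cornea, had an interaction of 2.14, and the pigment epithelial genes Lrat and Rgr ones of -0.97 and -0.25, all with intervals that included 0. Best1, a channel of the pigment epithelium that was below 1 FPKM in every library and was chosen after its values were seen, had an interaction of 0.46 (interval 0.06 to 0.86), and its changes did not overlap between the groups. The part of these tissues in the values of Fbln1, Gpx3, Dio3 and Mfap2 was not tested.

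Lens genes had wide intervals. Of 25 lens genes, 13 rose in the mean response, and 20 had a lower change with GCV (median interaction -0.48). Crybb2, a beta-crystallin, stood at 1.92, 12.0 and 10.1 FPKM in control eyes and at 38.3, 1640 and 1580 FPKM in IOP-treated eyes without GCV. With GCV it was at 1423, 28.9 and 35.4 FPKM and at 2068, 991 and 1631 FPKM. The control eye of mouse 1 thus already held the level of IOP-treated eyes, and the interaction of -2.27 had an interval of -5.98 to 1.44. Cryaa, the alpha-crystallin A chain, stood at 3848 FPKM in that eye and had an interaction of -2.17 (standard error 1.84), which was -0.07 without mouse 1, while that of Crybb2 was then -0.69. Without mouse 1 the median of the lens list was -0.07, without mouse 4 it was 0.10 and without mouse 3 it was -1.52.

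The blood and endothelial lists had medians below 0 for the interaction. All 8 blood genes tested had a lower change (median -0.83, and -0.30 without mouse 2), beside 9116 of 18509 genes. Mean changes of the blood list were 0.80, 0.39 and -0.53 without and -0.76, -1.22 and -0.03 with GCV, and the groups overlapped. Hbb-bt, a beta-globin chain that shares reads with its near-identical neighbour Hbb-bs, stood at 4.75, 6.86 and 4.45 FPKM in control eyes and 26.1, 13.1 and 6.83 FPKM in IOP-treated eyes without GCV. Its levels with GCV were 13, 9.0 and 3.46 FPKM and 5.62, 5.30 and 3.73 FPKM (interaction -1.75, interval -3.03 to -0.48, unadjusted p = 0.0146). Hbb-bs was listed at 0.0101 to 0.0140 FPKM in 11 libraries and at 17.4 FPKM in the control eye of mouse 2, and its split from Hbb-bt is uncertain. Of 18 endothelial genes, 13 had a lower change (median -0.25, and -0.07 to -0.31 without single mice). Slco1c1, a thyroid hormone transporter of endothelium, stood at 1.45, 2.33 and 1.37 FPKM in control eyes and 0.712, 1.52 and 0.249 FPKM in IOP-treated eyes without GCV. With GCV these levels were 3.30, 2.24 and 2.51 FPKM and 0.488, 0.724 and 0.265 FPKM (interaction -0.69, interval -1.33 to -0.05). For 9 genes of pericytes and smooth muscle the median was 0.13 (-0.09 to 0.28 without single mice), with Pdgfrb (standard error 0.21) and Acta2 (0.49) both at 0.19.

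Genes of Müller glia and of sterol synthesis had list medians of the interaction near 0. The 18 homeostatic Müller genes had a median interaction of -0.06 (-0.23 to 0.13 without single mice). Spc25, abundant in mouse Müller glia, fell by 1.94 with an interaction of -0.66 (standard error 0.54), and Crym, a thyroid hormone-binding protein, rose by 2.32 with one of -0.21 (standard error 0.25). Of 21 genes of cholesterol synthesis, 12 fell and none rose, with mean changes of -0.58, -0.48 and -0.66 without and -0.54, -0.70 and -0.80 with GCV and a median interaction of -0.10. Hmgcs1, the synthase at the entry to the pathway, fell by 0.84 with an interaction of -0.38 (interval -0.84 to 0.08).

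Of 22 kinases that dasatinib inhibits, 4 rose in the mean response, beside 894 of 18509 genes. A higher change with GCV was found for 20 of them, beside 9393 of 18509 genes. Their median interaction of 0.22 was between 0.09 and 0.38 without any single mouse. The mean changes of 0.38, 0.45 and 0.01 without and 0.51, 0.14 and 0.88 with GCV overlapped between the groups. Fgr, a kinase of myeloid cells, rose by 2.12 with an interaction of 0.28 (standard error 0.74), and Ephb4, an ephrin receptor, had one of 0.26 (standard error 0.22). Abl1 was at 9.05, 9.88 and 10.1 FPKM in control eyes and 8.64, 9.24 and 5.22 FPKM in IOP-treated eyes without GCV, and at 8.73, 8.37 and 8.57 FPKM and 8.63, 7.52 and 8.53 FPKM with GCV. Its lowest value was that of the shallow library of mouse 6, and the interaction was 0.27 (interval -0.35 to 0.90) and 0.02 without mouse 6. Nuclear and mitochondrial RNAs, taken as a sign of RNA quality, had mean changes of -0.24, 0.82 and -1.01 without and 0.11, 0.57 and -0.10 with GCV (median 0.23), and all 8 had a higher change with GCV. The median was 0.88 without mouse 4 and -0.02 without mouse 6. The interaction was 0.22 for Malat1 (interval -0.28 to 0.72) and 0.09 for Neat1 (interval -1.20 to 1.39). Their part in the other results was not tested.

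The smallest p-value of all genes belonged to a locus where genes overlap. Trpc2, a channel gene on chromosome 7 (GRCm38, 102083116 to 102096864), was at 0.000199, 0.890 and 0 FPKM in control eyes and at 0, 0.327 and 0 FPKM in IOP-treated eyes without GCV. With GCV it was at 1.21, 1.41 and 1.64 FPKM and at 0, 0 and 0.00626 FPKM, which gave an interaction of -1.10 (standard error 0.17, unadjusted p = 0.000564). The row of Xntrpc, an annotated gene that spans Trpc2, was at 0.00120, 0.0167 and 0.00794 FPKM in the control eyes with GCV and at 1.54, 1.98 and 1.00 FPKM in their IOP-treated eyes. Where 1 of these rows was near 0 the other held 0.911 to 1.98 FPKM, and the sum of both lay between 0.911 and 2.38 FPKM in every library. Pla2g4b, a phospholipase gene on chromosome 2 (120033433 to 120043033), was at 2.44, 2.67 and 1.85 FPKM and at 3.55, 2.42 and 3.79 FPKM without GCV, and at 2.30, 2.67 and 2.10 FPKM and 0.216, 0.928 and 0.0170 FPKM with GCV (interaction -1.68, standard error 0.32, unadjusted p = 0.0017). Gm28042, which overlaps Pla2g4b, was at 0, 1.24 and 0 FPKM in the IOP-treated eyes without and at 2.31, 2.77 and 2.18 FPKM with GCV. How the authors' processing divides fragments between such genes is not given in the sources used here, and both values are uncertain.

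**Figure D5:**
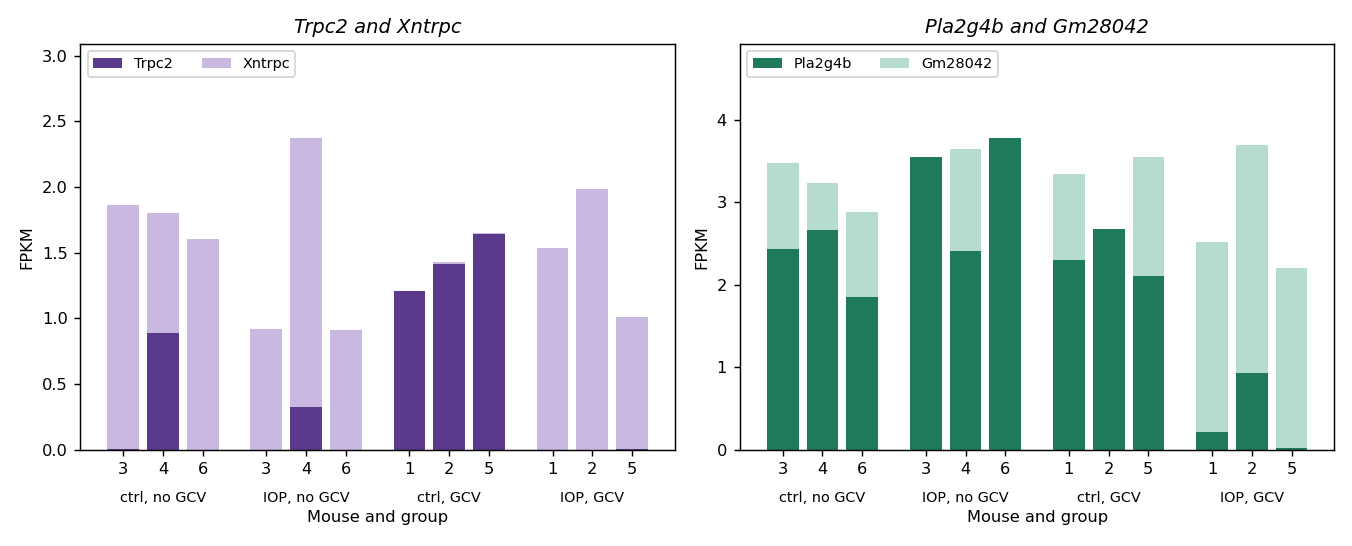
Stacked FPKM (bars from 0) of the overlapping genes Trpc2 and Xntrpc (left) and Pla2g4b and Gm28042 (right) in each library, in the order control and IOP-treated eyes without GCV, then with GCV, with the mouse number under each bar. The dark part of Trpc2 fills the control eyes with GCV and the light part of Xntrpc their IOP-treated eyes, while the stack stays between 0.911 and 2.38 FPKM.

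Among the remaining genes chosen in this way, some moved in opposite directions in the groups. Rnaseh2c, a subunit of ribonuclease H2 on chromosome 19 (5601873 to 5602959), stood at 24.6, 26.1 and 20.1 FPKM in control eyes and 19.8, 14.8 and 15.2 FPKM in IOP-treated eyes without GCV. Its levels with GCV were 15.0, 24.5 and 19.1 FPKM and 30.5, 30.1 and 24.3 FPKM. Every mouse without GCV was lower and every mouse with GCV higher in the IOP-treated eye (interaction 1.02, interval 0.43 to 1.60, unadjusted p = 0.00504). Pmf1, on chromosome 3 (88394138 to 88410445), had the same pattern, with changes of -0.23 on average without and 0.45 with GCV. Coa4, an assembly factor of cytochrome c oxidase, had the reverse pattern, with 11.03, 9.53 and 8.76 FPKM and 18.2, 11.6 and 27.9 FPKM without GCV. In GCV-treated mice it stood at 11.2, 12.3 and 11.1 FPKM and at 7.40, 11.1 and 9.45 FPKM (interaction -1.13, interval -1.98 to -0.29). Th, tyrosine hydroxylase of dopaminergic amacrine cells, stood at 0.567, 1.38 and 1.01 FPKM and at 0.712, 1.51 and 1.72 FPKM without GCV. Levels with GCV were 2.50, 1.63 and 1.37 FPKM and 0.849, 1.28 and 0.287 FPKM (interaction -0.88, interval -1.52 to -0.25, unadjusted p = 0.0140).

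The other genes of this kind were low or overlap annotated neighbours. Col26a1, a collagen gene, Btbd8, Gm2011 and 4930455G09Rik had interactions of 0.92, 0.88, 1.29 and 1.07 (standard errors 0.23, 0.20, 0.24 and 0.22), and 1700013F07Rik, 1700024P04Rik and Gm21992 ones of -0.86, -1.14 and -1.04 (standard errors 0.20, 0.29 and 0.31). Of these, Col26a1, Btbd8, Gm2011 and Gm21992 share their position with other annotated genes, as Coa4 and Prc1 do, and counting by strand is not stated in the sources used here. Gm2011 stood at 1.44, 3.84 and 1.64 FPKM in control eyes and at 0, 0.364 and 0 FPKM in IOP-treated eyes without GCV, and between 0.549 and 1.16 FPKM in the 6 retinas with GCV. Car9, a carbonic anhydrase of the hypoxia list, was at no more than 0.491 FPKM except in the IOP-treated eyes of mice 1 and 5 (1.03 and 5.66 FPKM), with an interaction of 0.75 and an interval of -1.01 to 2.52. Grm6, the glutamate receptor of bipolar cells, had an interaction of 0.67 (interval -0.51 to 1.86).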

How the data were processed

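RNA from both retinas of 6 mice was sequenced as paired-end reads from stranded mRNA libraries. Per the labels, the submitters' processing notes name TopHat2, Bowtie2, Cufflinks, Cuffdiff and the mm10 genome; the authors' methods describe HOMER counts over RefSeq exons. The deposited table holds FPKM values, a unit inferred from the values, in 24340 rows and 12 columns, of which 5831 rows were 0 in every library, 27 had a date in place of a symbol, and 0 columns were unused. No read counts were used. Sums were 394758 to 529896 FPKM, and no libraries were identical.

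The values were analysed as log2(FPKM + 1). Changes between the eyes of each mouse were fitted with limma 3.58.1 in R 4.3.3 with 1 mean per treatment, a prior variance that follows the expression level, and calls at a Benjamini-Hochberg adjusted p under 0.05. The eyes are paired because they come from the same animal; deviations of both eyes from their group means correlated at -0.12 to 0.39. p-values measure the spread between mice. Genes named were those with non-overlapping changes and the 10 smallest p-values in each direction among genes of at least 1 FPKM in a group, Cdkn2a, Cdkn1a and Abl1, the member of each of 37 lists with the smallest p and that with the largest mean response, and the 5 largest called mean responses, all at the same minimum of 1 FPKM (86 genes, of which 2 are not reported here). Xntrpc, Gm28042, Snora64 and Best1 were named after their values were seen. The comparison, lists and rules were chosen with earlier results of these data known. Positions are from RefSeq on GRCm38.p6, which 95.1% of symbols matched. Fragments per library were estimated after the values were seen, from multiples of the smallest values of 2243 genes with 1 transcript. The values were taken as not scaled further. The estimate was chosen to give the largest share of values within 0.15 of a whole number (81.4% to 85.9%). An even spread gives 30% only for a number fixed beforehand, so that these shares do not test the estimate. As alternatives, the fit was repeated with a pseudocount of 0.1, a filter of 1 FPKM in 3 libraries, no pairing, no trend, mouse weights, median-ratio scaling, quantile normalization and leaving out each mouse. The fit was tested on simulated data. Tables were made with Python 3.11.15, pandas 2.3.3 and matplotlib 3.10.9.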

Additional observations from a re-analysis of the deposited data

Results flagged for a closer look

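For 7 of the 20 genes with the smallest p-values (10 in each direction) at a level of at least 1 FPKM in a group and with changes that did not overlap, the change between the eyes was opposite in sign in every mouse with GCV and every mouse without it. Higher in the IOP-treated eye of each GCV-treated mouse and lower in that of each mouse without GCV were Pmf1 (difference of the changes 0.68 on the log2 scale), Dio3 (1.49), Rnaseh2c (1.02) and Col26a1 (0.92). The reverse held for 1700013F07Rik (-0.86), Th (-0.88) and Coa4 (-1.13). The difference was tested as the interaction, and none of the 7 passed the adjusted threshold (adjusted p of at least 0.992, limma). Over all genes, 122 had this pattern in the first direction and 59 in the second. Among the 378 genes with an unadjusted p under 0.05 (limma), 58 and 23 had it. The 20 genes were chosen from these same changes, and that choice favours opposite signs, so that the 7 are not a separate result. Dio3 was higher in both eyes of mice 3 and 6 than in the control eyes of the mice with GCV, and 1700013F07Rik was at no more than 1.71 FPKM in any library.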

How the results depend on the processing

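No gene was called for the interaction under any alternative, an adjusted p under 0.1 included, except 1 gene without mouse 1 (0 to 1 when single mice were left out). This was Snora64, a small RNA listed at 124 and 139 FPKM in the IOP-treated eyes of mice 2 and 5 and at 0 in the other 10 libraries, that of mouse 1 included (adjusted p = 0.0152, limma). Genes with an unadjusted p under 0.05 numbered 199 with the filter, where fewer genes were tested, and 333 to 757 without single mice. With the replicate block removed, that is without pairing the eyes, 358 genes had an unadjusted p under 0.05. Among the 378 genes with all mice and the eyes paired, the share with a higher change with GCV was 63.0%, and the share was 73.4% with the filter, 45.6% without mouse 6 and 78.7% without mouse 2. Genes called for the mean response numbered 2443 with the filter, 2258 without pairing, 2161 after quantile normalization, and 1 to 887 without single mice; the cause was not tested. The difference in the size of the response between the groups was -0.152 to 0.0512 without single mice. Of 37 list medians, 12 kept their sign without any single mouse (8 above 0 and 4 below), and 24 changed sign in at least 1 alternative. Of 84 named genes, 22 changed sign in at least 1 alternative. Without single mice the interaction ranged from -0.07 to 0.40 for Cdkn2a, -0.57 to 0.48 for Cdkn1a, -0.59 to 0.22 for Casp1, -0.72 to 0.11 for B2m, -0.91 to 0.05 for Bcl3, -0.37 to 0.05 for Crym, -0.59 to 0.10 for Fcrls, -0.05 to 1.20 for Lyz2, -0.27 to 0.88 for Cd52, -0.71 to 0.66 for Chrna6, -0.86 to 0.05 for Egr1, -0.65 to 0.07 for Gadd45b, -0.30 to 0.73 for Arr3, -0.30 to 0.98 for Calb2, -0.27 to 0.56 for Calb1, -0.14 to 0.60 for Acta2, -1.56 to 0.80 for Rgr, -0.08 to 1.47 for Car9, -0.02 to 1.57 for Hmox1, -0.56 to 0.84 for Fgr, -0.48 to 0.40 for Neat1 and -1.03 to 0.89 for Apoc2. Mouse weights gave 0.03 for Casp1, -0.09 for Cd52, -0.11 for Calb2, -0.06 for Calb1 and -0.01 for Acta2, quantile normalization gave -0.03 for Calb1, and the pseudocount of 0.1 gave -0.00 for Apoc2. With 3 mice per group, differences well beyond the median unadjusted interval of 0.652 log2 units to either side could go uncalled. Genes near 1 FPKM or lower are measured from few fragments.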
